A study of Homo sapiens with 12 samples.

Results

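Tetraspanins are small membrane proteins that cross the cell membrane repeatedly, and 10 of their genes were followed here through xenograft tumours treated with the ALK inhibitor ceritinib: TSPAN1, TSPAN5, TSPAN6, TSPAN7, TSPAN12, TSPAN14, TSPAN15, CD9, CD82 and CD151. They were listed by name and chosen by the treated and control signals of these same tumours. All 10 were among the 12300 genes tested, and they make up 10 of the 19 tetraspanin genes measured above background out of 33 human tetraspanin genes listed. Total RNA of 12 tumours was hybridised to 12 Illumina BeadChips. Each tumour was a mouse xenograft of H3122 cells, a human line of ALK-rearranged lung adenocarcinoma, so a single line stands behind all values and the host's strain is not named in the labels. The groups were 4 tumours given 75 mg/kg ceritinib, 3 tumours given 87.5 mg/kg, 3 tumours given 100 mg/kg and 2 control tumours, labelled as controls with no further agent. According to the design text, the treated tumours first shrank and were followed until they had become resistant to the drug. The day on which each tumour was taken is not in the labels. Nothing in the labels ties a tumour to a mouse, so the tumours may not all be independent. The SE and p given here treat them as independent and may be too small if some share a mouse. The spread between tumours may also in part be technical.

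Tetraspanins work mainly through other proteins, which they bind and gather into patches of the membrane. Their partners include laminin-binding integrins, immunoglobulin-type surface proteins, growth factor receptors and the protease ADAM10, and several tetraspanins are sorted into extracellular vesicles. In epithelial cancers the family is known for its effects on adhesion, migration and the trafficking of receptors.

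Levels are given as log2 signal, the base-2 logarithm of a probe's background-corrected and quantile-normalised intensity. Each gene is represented by its brightest detected probe. Signals of different probes are not on a common scale, so levels are compared between tumours and not between genes. Per array, 17993 to 19478 of the 47323 probes were detected, or 38.0% to 41.2%. One array, 87.5 mg/kg replicate 2, lay apart from the other 11 on the second principal component of all genes. It had the lowest signal of the 10 treated tumours for TSPAN6, TSPAN14, CD9, CD82 and CD151, that is for 5 of the 10 genes. Without that array, the treated minus control difference was -0.71 for TSPAN6, -0.42 for TSPAN14, 0.42 for CD9, 0.72 for CD82 and -0.11 for CD151.

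RefSeq promoter windows of GRCh38.p14 are shown for 3 genes whose signal was lower in treated tumours and for which the table holds 1 window each. A window runs from 250 bases before to 50 bases after the gene's start, and it therefore covers the proximal promoter and the first bases of the first exon. The windows are chr1:46174837-46175136 on the plus strand for TSPAN1, chr4:98658562-98658861 on the minus strand for TSPAN5 and chr10:69451215-69451514 on the plus strand for TSPAN15. Capitals mark GC boxes (GGGCGG) and CCAAT boxes (CCAAT) found on either strand.
TSPAN1: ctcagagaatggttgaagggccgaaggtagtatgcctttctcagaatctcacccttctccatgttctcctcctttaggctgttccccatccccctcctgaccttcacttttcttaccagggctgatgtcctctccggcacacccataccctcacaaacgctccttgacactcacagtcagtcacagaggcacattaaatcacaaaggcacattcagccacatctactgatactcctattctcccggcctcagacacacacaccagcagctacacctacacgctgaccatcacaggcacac
TSPAN5: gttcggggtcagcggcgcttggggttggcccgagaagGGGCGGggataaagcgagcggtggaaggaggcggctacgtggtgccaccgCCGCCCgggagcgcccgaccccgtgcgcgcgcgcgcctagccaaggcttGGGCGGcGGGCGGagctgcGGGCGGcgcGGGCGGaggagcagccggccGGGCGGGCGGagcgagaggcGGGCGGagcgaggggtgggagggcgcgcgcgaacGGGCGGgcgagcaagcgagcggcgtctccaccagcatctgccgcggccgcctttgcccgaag
TSPAN15: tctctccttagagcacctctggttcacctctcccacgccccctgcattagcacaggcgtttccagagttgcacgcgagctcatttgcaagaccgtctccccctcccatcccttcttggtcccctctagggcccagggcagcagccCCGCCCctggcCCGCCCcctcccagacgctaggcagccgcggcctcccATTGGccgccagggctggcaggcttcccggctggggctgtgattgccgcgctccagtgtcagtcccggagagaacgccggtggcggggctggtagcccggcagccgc
The windows differed in base composition. TSPAN1 had 52.0% G and C with 5 CpG dinucleotides, TSPAN15 had 69.0% with 20 and TSPAN5 had 78.3% with 50, against medians of 58.7% and 14 over the 35116 windows in the table. TSPAN5 held 10 GC boxes, some of them overlapping, TSPAN15 held 2 GC boxes and 1 CCAAT box, and TSPAN1 held neither. Of all windows, 45.0% held a GC box and 34.6% a CCAAT box. The letters TATAAA (11.5% of all windows), TGANTCA (7.71%), CACGTG (7.26%) and TGTTTAC (3.42%), also searched on both strands, occurred in none of these 3 windows. Windows were matched for 8 of the 10 genes by symbol. These matches describe the sequence and are not evidence of binding.

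Among the 10 genes, TSPAN1, TSPAN5, TSPAN6, TSPAN14 and TSPAN15 had lower signals in every treated tumour than in either control, and TSPAN7 and CD82 had higher signals in every treated tumour. TSPAN12 was higher on average, and CD9 and CD151 overlapped the controls. The largest differences were a 2.19-fold lower mean signal of TSPAN1 and a 2.05-fold higher mean signal of TSPAN7, each the mean of the 3 dose groups minus the control mean. In the fit across all genes, 8 of the 19 measured tetraspanins passed an adjusted p of 0.05, against 18.8% of all 12300 genes. They were 3 higher genes (9.88% of all genes passed in that direction) and 5 lower genes (8.97%), and all 8 were among the 10 listed genes. Because the list was drawn up with these differences known, its count is a description, and the genes' treated and control signals carry no p. Groups did not overlap for 7 of the 10 genes, 2 above the controls and 5 below, where 22.5% of all genes did so, 11.5% above and 11% below.

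The 2 control tumours limit every comparison with control. Without control replicate 1, 2 tetraspanins passed the threshold, TSPAN1 and TSPAN12, and without control replicate 2 only TSPAN7 did. Without 87.5 mg/kg replicate 2, 8 passed. In whole tumours, fewer cells of one kind and less RNA per cell cannot be told apart.

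**Figure D1:**
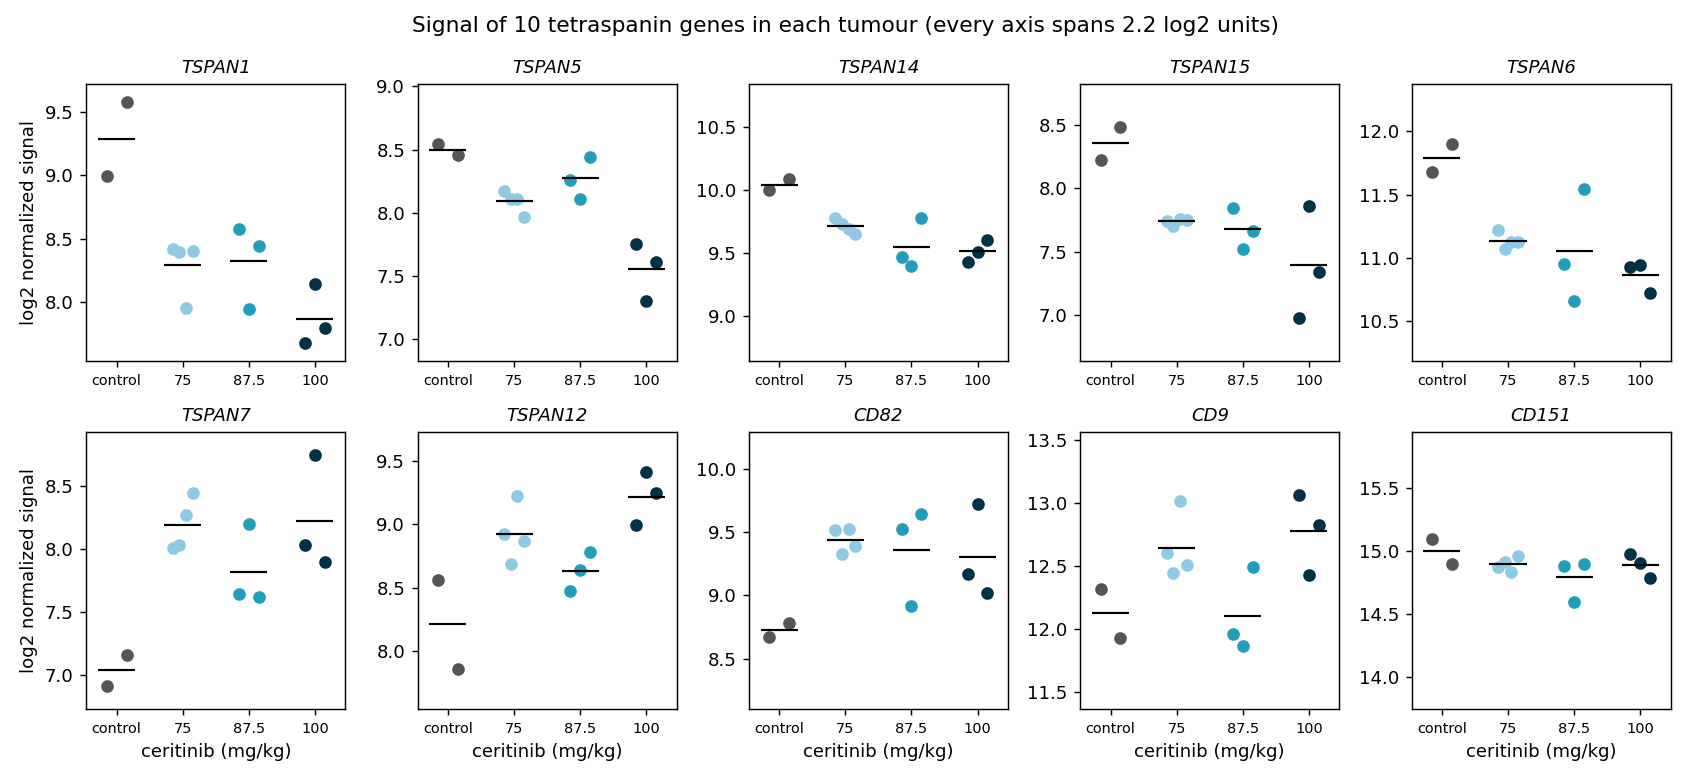
log2 signal (vertical axes) of the 10 tetraspanin genes in each tumour, by ceritinib dose with the control tumours at the low end of the dose axis. Points are tumours and bars are group means. TSPAN1, TSPAN5, TSPAN6, TSPAN14 and TSPAN15 lie below both controls in all 10 treated tumours, and TSPAN7 and CD82 lie above them.

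TSPAN5, TSPAN14 and TSPAN15 belong to the group of tetraspanins that bind ADAM10, the protease that sheds Notch, cadherins and growth factor precursors, and carry it to the cell surface. TSPAN5 had a log2 signal of 8.18, 8.11, 8.11 and 7.96 in the 4 tumours at 75 mg/kg, 8.26, 8.11 and 8.44 at 87.5 mg/kg and 7.75, 7.30 and 7.61 at 100 mg/kg, against 8.54 and 8.46 in the controls. The highest treated tumour, 87.5 mg/kg replicate 3, came within a few hundredths of the lower control, and the 3 tumours at 100 mg/kg were the lowest of all 12. The treated mean lay below the control mean, with a log2 difference of -0.53 (SE 0.13), or 1.44-fold. TSPAN14 had 9.78, 9.73, 9.69 and 9.65 at 75 mg/kg, 9.47, 9.40 and 9.78 at 87.5 mg/kg and 9.43, 9.51 and 9.60 at 100 mg/kg, against 9.995 and 10.09 in the controls. Its treated tumours spanned 0.38 on the log2 scale, the narrowest range of the 10 genes, and all of them lay under both controls, with a difference of -0.45 (SE 0.11) or 1.37-fold.
TSPAN15, known in human cells for steering ADAM10 towards N-cadherin, had 7.74, 7.70, 7.75 and 7.75 at 75 mg/kg, 7.85, 7.52 and 7.66 at 87.5 mg/kg and 6.97, 7.86 and 7.34 at 100 mg/kg, against 8.23 and 8.49 in the controls. The tumours at 75 mg/kg were nearly identical to each other, whereas those at 100 mg/kg held both the lowest and the highest treated value. The difference was -0.76 (SE 0.18), or 1.69-fold lower in treated tumours. TSPAN5, TSPAN14 and TSPAN15 were thus each lower in all 10 treated tumours than in both controls. TSPAN17, another tetraspanin that binds ADAM10, gave a difference of -0.01 (SE 0.15), and TSPAN10 and TSPAN33 of the same group were detected on 0 arrays.

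TSPAN1 is a tetraspanin of secretory and surface epithelia, and TSPAN6 is a widely expressed relative of TSPAN7 on the X chromosome that has been tied to the trafficking of the amyloid precursor protein into vesicles. TSPAN1 had a log2 signal of 8.41, 8.39, 7.95 and 8.40 at 75 mg/kg, 8.58, 7.94 and 8.44 at 87.5 mg/kg and 7.67, 8.14 and 7.79 at 100 mg/kg, against 8.99 and 9.58 in the controls. The 2 controls were 0.59 apart, about as far as the lower control stood from several treated tumours. The difference was -1.13 (SE 0.21), or 2.19-fold lower in treated tumours. TSPAN6 had 11.22, 11.07, 11.13 and 11.13 at 75 mg/kg, 10.95, 10.66 and 11.54 at 87.5 mg/kg and 10.92, 10.94 and 10.72 at 100 mg/kg, against 11.68 and 11.90 in the controls. The 3 tumours at 87.5 mg/kg held both the lowest and the highest treated value, so this dose group was the widest for TSPAN6. The difference was -0.77 (SE 0.18), or 1.71-fold lower in treated tumours.

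TSPAN7, known for its role at synapses and for mutations in X-linked intellectual disability, was the gene with the largest increase in mean signal. It had 8.01, 8.03, 8.27 and 8.44 at 75 mg/kg, 7.64, 8.20 and 7.61 at 87.5 mg/kg and 8.03, 8.74 and 7.89 at 100 mg/kg, against 6.92 and 7.16 in the controls. Every treated tumour lay above both controls, with a difference of 1.04 (SE 0.22). TSPAN12, a co-receptor part of the Norrin and FZD4 receptor complex that activates beta-catenin in retinal vessels, had 8.92, 8.68, 9.23 and 8.87 at 75 mg/kg, 8.47, 8.64 and 8.78 at 87.5 mg/kg and 9.00, 9.41 and 9.25 at 100 mg/kg, against 8.56 and 7.86 in the controls. The controls were 0.70 apart and 87.5 mg/kg replicate 1 lay below the higher of them, so the groups overlapped at a difference of 0.72 (SE 0.19), or 1.64-fold. The difference of TSPAN12 was 1.07 without control replicate 1 and 0.37 without control replicate 2. CD82, known as a suppressor of metastasis in several carcinomas, had 9.52, 9.32, 9.53 and 9.39 at 75 mg/kg, 9.53, 8.92 and 9.64 at 87.5 mg/kg and 9.17, 9.73 and 9.02 at 100 mg/kg, against 8.67 and 8.78 in the controls. All 10 treated tumours were above both controls, by a mean difference of 0.65 (SE 0.20) or 1.57-fold, and 87.5 mg/kg replicate 2 came nearest to them. Before normalisation that tumour had an intensity of 551, against 591 and 572 in the controls, so for this tumour the separation was not present in the unnormalised intensities.

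CD9 and CD151 are the members most often named as partners of integrins. CD9 is also a partner of the heparin-binding growth factor precursor encoded by HBEGF. CD151 is a partner of the laminin receptors made from ITGA3 with ITGB1, or from ITGA6 with ITGB1 or ITGB4. CD9 had 12.60, 12.44, 13.01 and 12.51 at 75 mg/kg, 11.96, 11.86 and 12.49 at 87.5 mg/kg and 13.06, 12.43 and 12.82 at 100 mg/kg, against 12.32 and 11.93 in the controls. Its treated tumours had the largest SD of the 10 genes, 0.39, and the groups overlapped at a difference of 0.38 (SE 0.21). Without control replicate 1 the difference of CD9 was 0.58, and without control replicate 2 it was 0.19. Every tumour at 75 and 100 mg/kg lay above both controls, while 2 of the 3 tumours at 87.5 mg/kg were below the higher control. CD151 had 14.87, 14.91, 14.83 and 14.96 at 75 mg/kg, 14.88, 14.59 and 14.90 at 87.5 mg/kg and 14.98, 14.90 and 14.79 at 100 mg/kg, against 15.10 and 14.89 in the controls. It was the steadiest of the 10, with an SD of 0.11 over treated tumours and a difference of -0.14 (SE 0.11), which was -0.04 without control replicate 1 and -0.24 without control replicate 2. Its unnormalised intensities were 24116 to 33888 in treated tumours and 33334 and 36575 in the controls.

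The 3 doses were each set against the same 2 controls, so their differences share those values and are given side by side. At 75 mg/kg 3 members passed the adjusted threshold, against 14.5% of all genes, namely TSPAN7 and TSPAN12 higher and TSPAN1 lower. At 87.5 mg/kg 2 members passed, TSPAN1 and TSPAN14, both lower, against 6.18% of all genes. At 100 mg/kg 7 passed, against 22.1% of all genes. They were TSPAN7 and TSPAN12, both higher, and TSPAN1, TSPAN5, TSPAN6, TSPAN14 and TSPAN15, all lower. The members were chosen by the treated and control signals of these same tumours. The counts at the 3 doses are therefore a description. Any excess over the shares of all genes follows in part from that choice and cannot be read as a test. The log2 difference of TSPAN1 was -0.998, -0.97 and -1.42 at 75, 87.5 and 100 mg/kg, that of TSPAN5 -0.41, -0.23 and -0.94, and that of TSPAN15 -0.62, -0.68 and -0.97. For TSPAN7 the differences were 1.15, 0.78 and 1.18, for TSPAN12 0.72, 0.42 and 1.01, and for CD9 0.52, -0.02 and 0.65. TSPAN1, TSPAN5, TSPAN7, TSPAN12 and CD9 had the difference closest to 0 at the middle dose, although for TSPAN1 the values at 75 and 87.5 mg/kg were nearly the same.
The count at 87.5 mg/kg was 0 when either control was left out and 1, CD82, without 87.5 mg/kg replicate 2. It was also 0 without 75 mg/kg replicate 1, 2 or 4 or 100 mg/kg replicate 3, and 1 without 75 mg/kg replicate 3 or 87.5 mg/kg replicate 1. The count at 75 mg/kg was 1 without control replicate 2, and the count at 100 mg/kg was 3 without that control. Leaving out 1 of 87.5 mg/kg replicate 2, 87.5 mg/kg replicate 3 or 100 mg/kg replicate 2 gave 5 at 75 mg/kg.

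**Figure D2:**
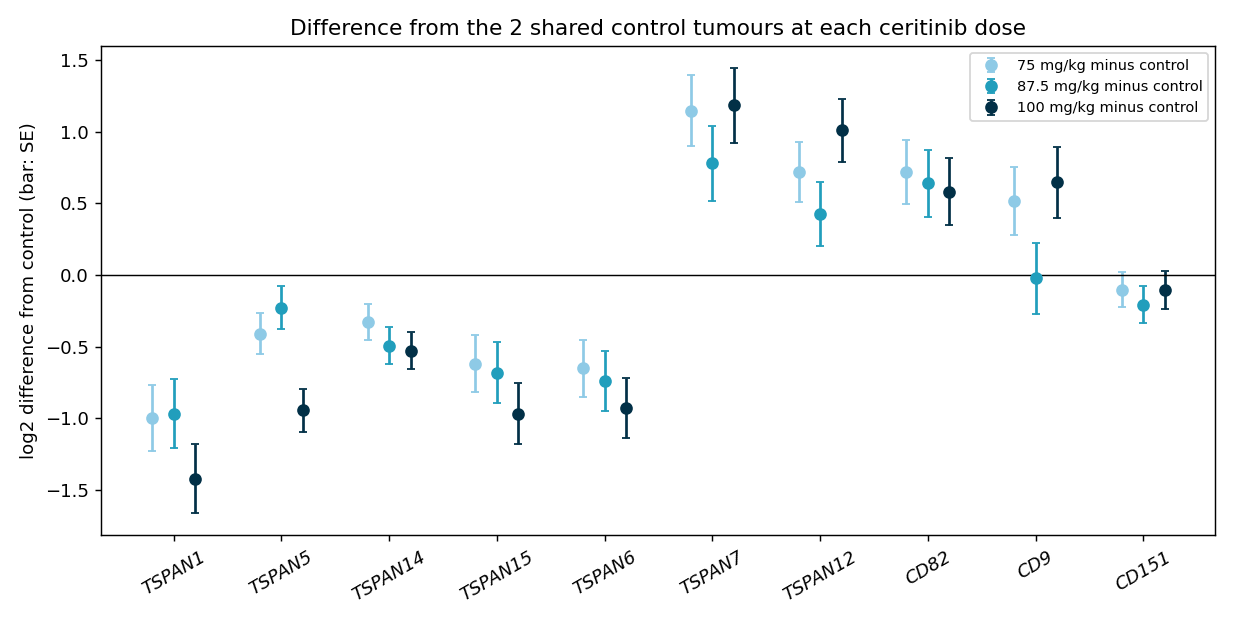
log2 difference from control (vertical axis) of each tetraspanin gene at 75, 87.5 and 100 mg/kg, with bars for the SE. The 3 doses share 2 control tumours. TSPAN1 runs from -0.998 at 75 mg/kg to -1.42 at 100 mg/kg, and TSPAN5 is lowest at 100 mg/kg, with -0.94.

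Doses were also compared directly with each other in the fit to all 12 tumours, and here p was adjusted over all 12300 genes (limma). The 10 genes were chosen with the signals of these same tumours known. Their calls and p between doses are therefore a description and not an independent test. One of the 10 genes passed between 100 and 87.5 mg/kg, TSPAN5, against 0.78% of all genes. The log2 difference, 100 minus 87.5 mg/kg, was -0.72 (SE 0.14, 95% interval -1.02 to -0.42, adjusted p = 0.0468), and the 3 tumours at 100 mg/kg lay below the 3 at 87.5 mg/kg. This call was lost in 17 of 25 alternative settings, with adjusted p from 0.0243 to 0.198, and leaving out any 1 tumour other than 87.5 mg/kg replicate 2 ended it. Without that array the difference was -0.80 (adjusted p = 0.0297). Between 100 and 75 mg/kg the difference of TSPAN5 was -0.53 (SE 0.13, adjusted p = 0.0769, and 0.0463 without 87.5 mg/kg replicate 2), also with no overlap. Of all genes, 7.63% lay below without overlap between 100 and 87.5 mg/kg and 10.3% above, and between 100 and 75 mg/kg 8.38% lay below and 10.4% above. Among the 10 genes, TSPAN5 lay below and TSPAN12 above in the first pair of doses, and TSPAN5, TSPAN6 and TSPAN14 lay below in the second.
None of the 10 genes passed between 100 and 75 mg/kg, where 0.667% of all genes did. An unadjusted p under 0.05 was found there for 1 of the 10, TSPAN5, and for 1927 of all 12300 genes. None passed between 87.5 and 75 mg/kg, where 0% of all genes passed. In that pair of doses, 1 of the 10, CD9, had an unadjusted p under 0.05, as did 1036 of all 12300 genes. CD9 differed by 0.67 between 100 and 87.5 mg/kg (SE 0.22, adjusted p = 0.174) and by -0.54 between 87.5 and 75 mg/kg (SE 0.21, adjusted p = 0.537). TSPAN12 differed by 0.59 between 100 and 87.5 mg/kg (95% interval 0.15 to 1.02, adjusted p = 0.181), with no overlap between the 6 tumours. CD82 differed between 100 and 87.5 mg/kg by -0.06, with an interval of -0.52 to 0.40, and the steadier CD151 by 0.10, with an interval of -0.15 to 0.36.

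**Figure D3:**
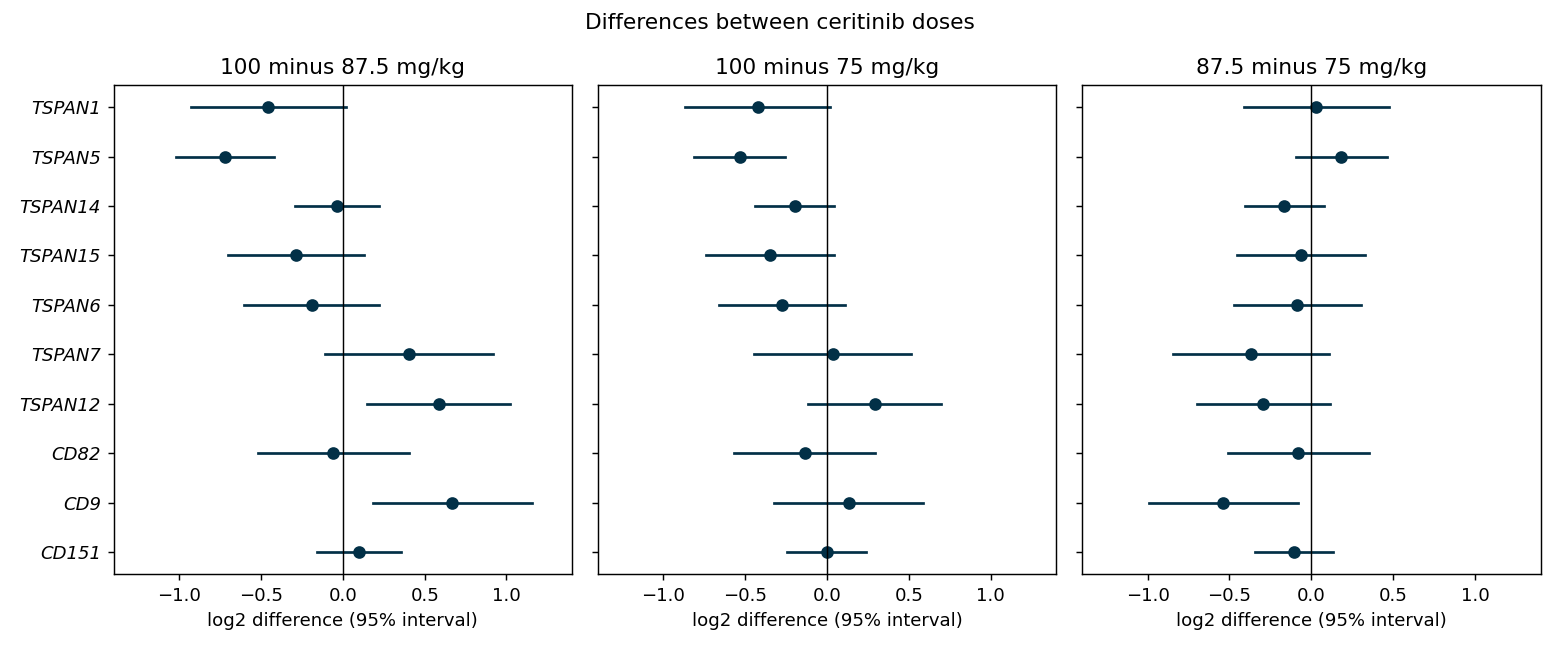
log2 difference between dose groups (horizontal axes) for each tetraspanin gene, with 95% intervals, higher dose minus lower dose. TSPAN5 between 100 and 87.5 mg/kg, at -0.72, is the one difference that passed the adjusted threshold.

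The 10 genes had 17 probes, of which 14 were detected on all 12 arrays. The second probe of TSPAN6 gave -0.81 for treated minus control beside -0.77 for the first. That of TSPAN7, detected on 9 arrays, gave 1.01 beside 1.04. The separation from the controls was seen with both probes of each gene. For the second TSPAN7 probe it was narrow and near background, with controls at 5.70 and 5.71 and the lowest treated tumour at 5.91. For TSPAN12 the dimmer probe gave 0.33 and for CD82 0.21, each less than the brighter probe and each with overlapping groups. CD9's second probe, detected on 10 arrays, gave -0.03, and the other probes of CD151 gave -0.22 and -0.54. TSPAN1, TSPAN5, TSPAN14 and TSPAN15 have 1 probe each here.

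**Figure D4:**
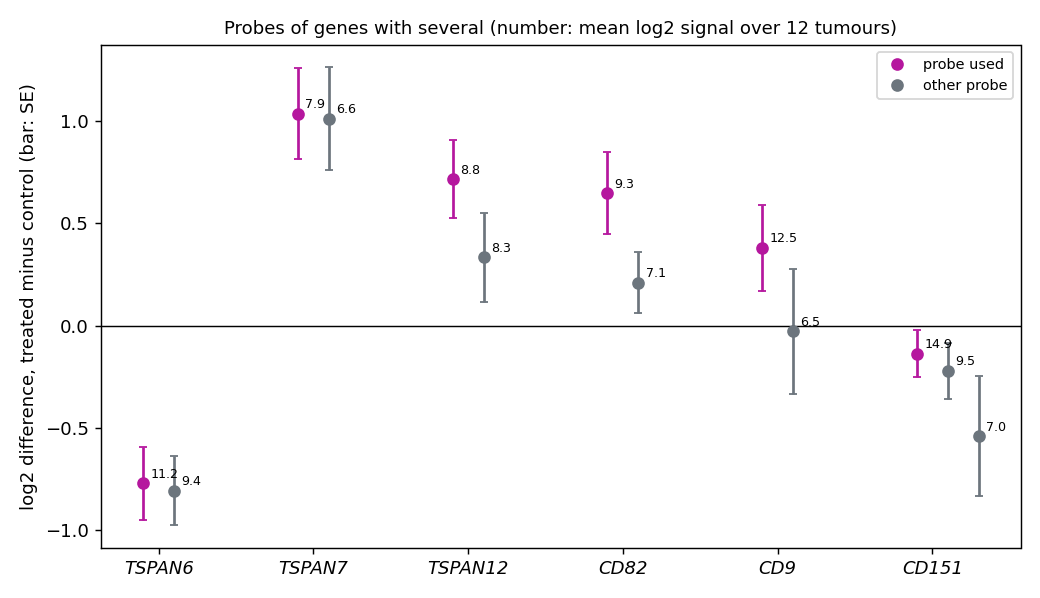
Treated minus control log2 difference (with SE) for every probe of the 6 genes with several probes, with the number beside each point for its mean log2 signal. The probes of TSPAN6 (-0.77 and -0.81) and TSPAN7 (1.04 and 1.01) lie close together, and those of CD82 (0.65 and 0.21) lie apart.

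Outside the list, 9 further tetraspanins were measured: TSPAN3, TSPAN4, TSPAN8, TSPAN9, TSPAN13, TSPAN17, TSPAN31, CD81 and ROM1. By limma, 0 of the 9 passed between treated and control tumours, where 18.8% of all 12300 genes did. An unadjusted p under 0.05 was found for 0 of the 9 and for 4053 of all genes. The list was drawn up with these differences known, so the counts of 0 outside it follow in part from that choice. TSPAN31, known from amplification in sarcomas, had the smallest adjusted p, 0.177, at a difference of 0.31 (SE 0.15). TSPAN9, a platelet tetraspanin, differed by -0.34 (SE 0.18, adjusted p = 0.205). TSPAN9 passed as lower when arrays were scaled to 1 median, with -0.49 and an adjusted p of 0.0475, and without normalisation, with -0.55 and 0.00989. CD81, a partner of CD9, differed by 0.17 (SE 0.12), and TSPAN8, an epithelial tetraspanin, by 0.14 (SE 0.15). Without control replicate 2 the difference was -0.14 for TSPAN9, 0.10 for CD81 and -0.05 for TSPAN8, and without control replicate 1 it was -0.54, 0.24 and 0.33. TSPAN4, known as a component of migrasomes, differed by -0.62 between 100 and 75 mg/kg (SE 0.21, adjusted p = 0.193). The 13 other named tetraspanins were not tested: 12 were detected on 0 arrays and TSPAN11 on 1. The leukocyte tetraspanins CD37 and CD53 and the urothelial UPK1A and UPK1B were among those at 0 arrays.

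**Figure D5:**
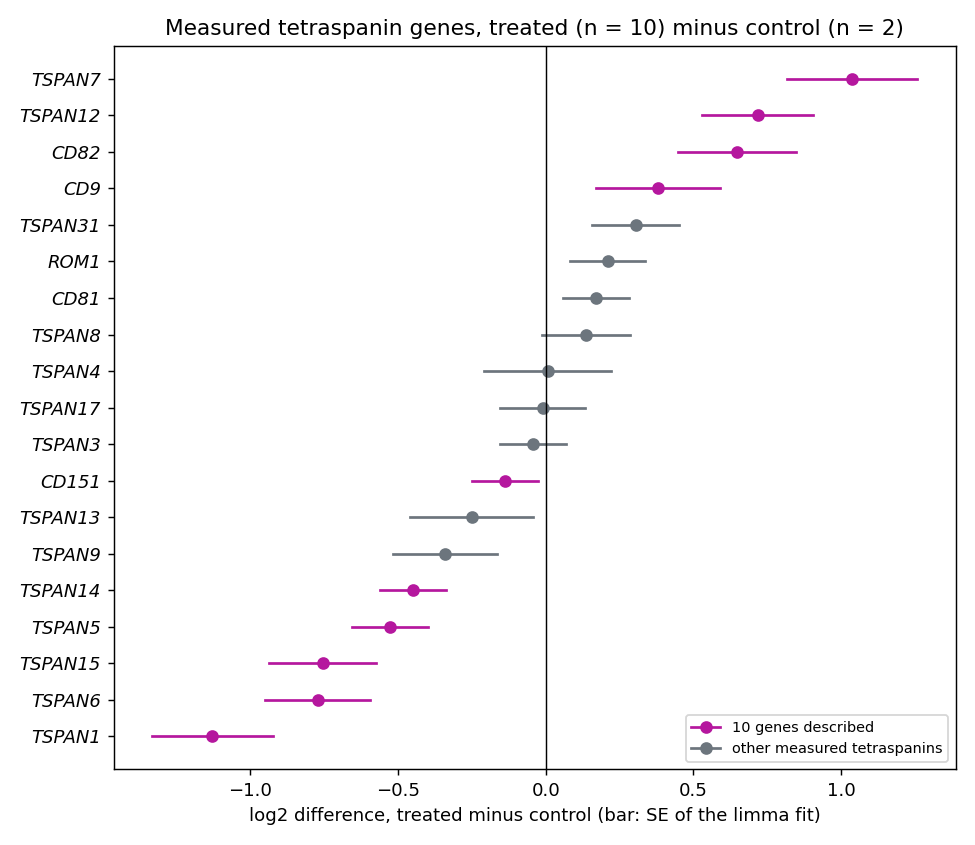
Treated minus control log2 difference with SE (horizontal axis) for the 19 measured tetraspanin genes, with the 10 listed genes marked. The 9 genes outside the list lie between -0.34 (TSPAN9) and 0.31 (TSPAN31).

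Genes of partner proteins were read in the same fit, from lists of known partners drawn up with earlier results of these data known. The genes named are mainly those with the smallest p in each list. In this fit 18.8% of all 12300 genes passed, and the counts and p of the lists are a description, not independent support. Of 7 measured integrin and immunoglobulin partners, 3 passed, all lower, and the list's median difference was -0.44 against 0.02 over all genes. ITGB4, the chain that forms a laminin receptor with ITGA6, a partner of CD151, fell by 1.41 on the log2 scale (SE 0.19, adjusted p = 0.000508). ITGB1 fell by 0.41 (adjusted p = 0.0217) and IGSF3 fell by 0.45 (adjusted p = 0.0172), and ITGA6 missed the threshold at -1.07 (adjusted p = 0.0706). Without control replicate 1 the p of ITGB1 was 0.190 and that of IGSF3 0.112, and without control replicate 2 they were 0.0941 and 0.129.
Of the 11 measured ADAM proteases and substrates, 1 passed as higher and 5 as lower, with a list median of -0.59. CDH2, which encodes N-cadherin, fell by 2.36 (SE 0.30, adjusted p = 0.000412), CDH1, which encodes E-cadherin, fell by 0.59 (SE 0.12, adjusted p = 0.00689) and APP fell by 1.03 (SE 0.22, adjusted p = 0.00853). EGF, a growth factor made as a membrane precursor, rose by 1.60 (SE 0.27, adjusted p = 0.00226). ADAM10 itself, named here after its value was seen, fell by 0.83 (SE 0.23, adjusted p = 0.0277), beside the lower signals of TSPAN5, TSPAN14 and TSPAN15, and NOTCH2 fell by 0.62 (adjusted p = 0.0287), also named after its value was seen. Without control replicate 1, the adjusted p was 0.234 for ADAM10, 0.225 for NOTCH2, 0.186 for APP, 0.058 for EGF and 0.0791 for CDH1. Without control replicate 2 it was 0.102 for ADAM10, 0.116 for NOTCH2 and 0.0596 for CDH1.

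Among 6 growth factor receptors and ligands, 2 were higher and 2 lower, with a list median of 0.02. KIT rose by 2.68 (SE 0.27, adjusted p = 8.34e-05), and HBEGF, whose precursor binds CD9, by 1.78 (SE 0.33, adjusted p = 0.0034). EGFR fell by 1.07 (SE 0.31, adjusted p = 0.0354) and MET fell by 0.78 (SE 0.14, adjusted p = 0.00271). HBEGF, MET and EGFR missed the threshold without control replicate 1, with adjusted p of 0.0836, 0.0548 and 0.207, and EGFR also without control replicate 2, at 0.168. In the Norrin receptor list, LRP5 fell by 0.95 (SE 0.27, adjusted p = 0.0287), the 1 call among the 4 measured genes, FZD4 differed by -0.12 and the ligand NDP was detected on 0 arrays. The median of that list was -0.55. LRP5 lost its call without control replicate 1, at a difference of -0.47 and an adjusted p of 0.425. Of the 7 measured adhesion and vesicle partners, 2 passed, both lower, at a list median of 0.01. SDCBP, which encodes the vesicle adaptor syntenin, fell by 1.01 (SE 0.21, adjusted p = 0.00641), and CLDN1, which encodes a tight junction claudin, fell by 0.74 (SE 0.18, adjusted p = 0.0149). Without control replicate 1 these stood at 0.107 and 0.163, and without control replicate 2 CLDN1 stood at 0.0667.

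Marker lists were summed as normalised signal and are given as the log2 of the sum. All 9 epithelial and lung adenocarcinoma markers were measured, 2 passing as higher and 3 as lower between treated and control tumours, with sums of 16.69 to 16.93 in treated tumours against 16.78 and 17.01 in the controls. The leukocyte markers PTPRC, CD3E and CSF1R were detected on 0 arrays, CD79A passed as higher by 0.56 (adjusted p = 0.024, but 0.189 without control replicate 1 and 0.113 without control replicate 2), and the sum of the list ran from 12.73 to 13.20 in treated tumours against 12.44 and 13.05 in the controls. Endothelial markers, of which 4 of 5 were measured, summed to 9.94 to 10.58 in treated tumours against 9.43 and 9.54 in the controls, with VWF higher by 2.02 (adjusted p = 0.00493, 0.072 without control replicate 1) and TEK detected on 0 arrays. Fibroblast markers, of which 3 of 6 were measured, summed to 9.31 to 10.54 in treated tumours against 10.84 and 10.88 in the controls. The differences of COL1A1, COL1A2 and LUM were -0.74, -1.01 and -2.17, and all 3 passed, but none of them did when either control was left out. Both sums separated treated from control tumours, as the signals of TSPAN1, TSPAN5, TSPAN6, TSPAN7, TSPAN14, TSPAN15 and CD82 did, and their part in these results was not tested. The array was designed for human transcripts, whereas the host cells of these xenografts are mouse cells. The marker sums therefore cannot be read as cell content, and the share of signal from mouse RNA was not tested.

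Over the 10 treated tumours, 45 pairs of the 10 genes were correlated with 100000 permutations each. After Benjamini-Hochberg adjustment 0 pairs passed, and 7 had an unadjusted p under 0.05. TSPAN6 and TSPAN14 had a Pearson r of 0.78 (adjusted p = 0.117 by permutation) and a Spearman rho of 0.87 (adjusted p = 0.102), and r was 0.65 without the 2 tumours farthest from the median of TSPAN6. TSPAN1 and TSPAN15 had an r of 0.77 (adjusted p = 0.117 by permutation) and a rho of 0.56 (adjusted p = 0.434). Without the 2 tumours farthest from the median of TSPAN1, r was 0.39. Leaving out the farthest tumours also narrows the range, so no conclusion is drawn from the lower r. Within dose groups, where each value had its group mean subtracted, 1 pair passed, TSPAN5 and TSPAN7, with r = -0.88 (adjusted p = 0.0423 by permutation). Before subtraction r was -0.66 (adjusted p = 0.249 by permutation). The within-group permutation moved centred values across dose groups and took no account of the subtracted means. Its p can therefore not be relied on.
The genes most like CD9, the member with the largest SD, were PGBD2, PRUNE2, FOXA1, KLK13 and COX20, with Pearson r of 0.94 to 0.96 over the 10 treated tumours. Those most like TSPAN1, the member with the largest difference, were POM121C, CSNK1E, TIMM22, ZGPAT and LTB4R, also with r of 0.94 to 0.96. These are the highest of 12300 genes on 10 shared arrays and are a description.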

How the data were processed

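Microarray data of 12 H3122 xenograft tumours were used as deposited. Per the file headers, the text table holds a signal intensity and a detection p-value for each probe and array, and the deposited value table holds the same intensities, as a row by row comparison found; array medians differ, so no normalisation between arrays is evident. Both tables share all 47323 rows of signals, but their probe identifiers agree at 1 row. Identifiers were taken from the value table. With these, the mean signals of the 2 probes of a gene correlated at 0.506 across 4318 genes, against 0.0475 with those of the text table. The scanner software and background treatment are not given in the sources used here.

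Intensities were processed with neqc in limma 3.58.1 (R 4.3.3): its background came from the negative controls, which it infers from the detection p-value, and its offset was 16, followed by quantile normalisation and log2. A probe was kept when its detection p was under 0.01 on 2 or more arrays (20889 probes), and the brightest one by mean represented its gene (12300 genes). Names came from GEO's platform annotation. One linear model with 4 groups was fitted across all genes, with Benjamini-Hochberg adjustment and a threshold of 0.05. It was tested on simulated data. Correlations used Python 3.11.15 and scipy 1.17.1. The number of arrays limits the precision.

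The members and gene lists were chosen with earlier results of these data known. Named genes are the 10 members, every other measured tetraspanin, up to 4 genes per partner list with the smallest p, and the 5 genes most correlated with CD9 and with TSPAN1. Alternatives covered background, scaling, detection filter, choice of probe, variance model, array weights, a replicate block and leaving out each tumour.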

Additional observations from a re-analysis of the deposited data

Results flagged for a closer look

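Among the 4 tumours at 75 mg/kg, 1 tumour stood far from the others for 3 measured tetraspanins, as judged by the gap to its nearest neighbour divided by the group's range. For TSPAN1 that ratio was 0.955, with 75 mg/kg replicate 3 at a log2 signal of 7.95 and the others at 8.39 to 8.41. For ROM1 it was 0.867, again with replicate 3 low, at 8.16. For TSPAN31 it was 0.926, with replicate 2 low, at 10.91. Chance marks about 1 in 20 such groups, and 19 genes were examined. TSPAN5 differed between the 100 and 87.5 mg/kg groups by a log2 difference of -0.72 in the limma fit. The gene was chosen with the signals of these tumours known, so this is a description.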

How the results depend on the processing

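In 25 alternative settings per comparison, no call changed sign. Of the 8 tetraspanins past the threshold between treated and control tumours, 5 passed with the replicate block (TSPAN1, TSPAN5, TSPAN6, TSPAN7 and TSPAN14), and 1 to 8 passed when 1 tumour was left out. CD82 lost its call in 14 settings and TSPAN12 in 6. CD9, which was not called, changed sign with the largest-variance probe (-0.03). Between 75 mg/kg and control, 3 passed. The count was 5 with a neqc offset of 50 or with eBayes with trend and robust, 6 with normexp, no background correction, arrays scaled to 1 median or only the groups compared, 7 without normalisation, 8 with array weights, 1 with the replicate block and 1 to 5 with 1 tumour left out. Between 87.5 mg/kg and control, 2 passed. The count was 4 with scaling to 1 median, no normalisation or array weights, 1 with the largest-variance probe, 0 with no detection filter, only the groups compared or the replicate block, and 0 to 2 with 1 tumour left out. Between 100 mg/kg and control, 7 passed, and 3 to 8 did with 1 tumour left out. Between 100 and 75 mg/kg 1 passed with array weights, and 0 to 1 with 1 tumour left out. Between 100 and 87.5 mg/kg the call of TSPAN5 was lost (a count of 0) with scaling to 1 median, no normalisation, no detection filter, eBayes with trend and robust, only the groups compared or the replicate block, and 0 to 1 passed with 1 tumour left out. Of the correlations, 1 passed within dose groups, by a permutation that took no account of the subtracted group means. Scaling to 1 median moved the median difference of all genes from 0.02 to -0.11 and no normalisation to -0.16, with 836 genes called higher and 1775 lower, and 600 higher and 2595 lower, beside 1215 higher and 1103 lower as reported. No pairing by replicate number was seen. Deviations from the group means correlated at -0.007 on average between tumours of the same number (15 pairs, -0.22 to 0.38). Between others the average was 0.003 (38 pairs, -0.39 to 0.39). With so few tumours per group, this check cannot exclude a pairing. The cause of these changes was not tested. With 2 controls and probes such as those of TSPAN7 near background in the controls, the size of small differences is uncertain.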
